A study of Mus musculus with 18 samples.

Results

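Endothelial cells line the blood vessels, and in the brain they form the barrier between blood and tissue. When they sense bacterial products or cytokines they place adhesion molecules on their surface. Selectins catch and slow passing leukocytes, and the immunoglobulin-like molecules ICAM-1 and VCAM-1 then hold them through leukocyte integrins. Junction proteins such as VE-cadherin and PECAM-1 keep neighbouring cells together, and receptors for vascular endothelial growth factor (VEGF) and for the transforming growth factor beta (TGF-beta) family govern vessel growth and identity.

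The 10 genes described here are Vcam1, Icam1, Sele, Selp, Pecam1, Cdh5, Sox17, Eng, Flt1 and Lrg1. They were chosen by name, as rows of the deposited matrix with these gene symbols, from 36172 genes in all. Each symbol had 1 row, and all 10 were among the 14803 genes that were tested, which took more than 20 normalised counts in all libraries of some group. Sele and Selp passed only through LPS groups, so for these 2 genes a difference between treatments was a condition of being tested. The names point to endothelium, but several of the genes are also made elsewhere: Icam1 by activated microglia, Selp and Pecam1 by platelets, and Lrg1 by neutrophils and liver.

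Translating ribosome affinity purification (TRAP) with RNAseq was used on brain tissue of Cx3cr1-Cre/Ert2+; NuTRAP+ mice. All animals of all groups carried both transgenes and had received tamoxifen 3 to 4 weeks before treatment, and they were about 3 months old. The treated mice had 1 intraperitoneal injection of lipopolysaccharide (LPS), a cell wall component of Gram-negative bacteria, at 5 mg/kg, the control mice had phosphate-buffered saline (PBS), and brains were taken 24 h later. The 18 libraries came from 9 animals, 4 with PBS (2 female, 2 male) and 5 with LPS (4 female, 1 male), each with an input library from the homogenate of a hemisected brain and a positive library from the ribosomes pulled down by their EGFP tag. The Cre was driven by Cx3cr1, a gene of microglia and related macrophages, so endothelial cells were not the cells the tag was designed to mark. Mice were killed by cervical dislocation or by perfusion with saline, and which animal had which is not given in the sources used here.

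The input library of LPS animal 271 held 1250 counts in all, and none for any of the 10 genes, and was left out. The other 17 libraries held from 22968939 to 35123345 counts, with 5 in Positive LPS and 4 in each of the other groups. Gene positions below are those of the deposited table, on mm10. Values are normalised counts, meaning the deposited count rounded to a whole number and divided by the size factor of its library. They are not divided by gene length, so levels are compared between libraries and not between genes. PBS values are listed in the order of animals 268, 272, 273 and 506, and LPS values in the order 266, 267, 270 and 507 for input and 266, 267, 270, 271 and 507 for the positive fraction. Calls needed an adjusted p (Benjamini-Hochberg, edgeR's quasi-likelihood test) under 0.05 and a log2 fold change beyond 0.32 in size. All adjusted p-values below come from that test unless another is named.

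The stretches just before the start sites of Sele, Icam1 and Selp are shown, cut to 160, 160 and 60 bases. These 3 adhesion genes were picked with their steep rise with LPS in both fractions known. They lie among the classical targets of NF-kB, the factor that Toll-like receptors and cytokine receptors switch on. The part of NF-kB in their rise was not tested. The sequences are RefSeq's for GRCm38.p6, all on the plus strand, 5′ to 3′, and end at the base before the start site. Capitals mark matches to GGNNNTTCC on either strand, a short form of the NF-kB site. The RefSeq start site of Icam1, at 21015940, differs by 20 bases from the start of the gene in the deposited table, and distances are counted from the RefSeq site. The matches of Icam1 lie 153 to 145 and 84 to 76 bases before its start site, that of Sele 145 to 137, and that of Selp 14 to 6.
Sele, chr1:164048074-164048233: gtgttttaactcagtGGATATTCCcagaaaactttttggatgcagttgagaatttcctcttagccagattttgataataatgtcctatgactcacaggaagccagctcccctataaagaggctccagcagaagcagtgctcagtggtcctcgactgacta
Icam1, chr9:21015780-21015939: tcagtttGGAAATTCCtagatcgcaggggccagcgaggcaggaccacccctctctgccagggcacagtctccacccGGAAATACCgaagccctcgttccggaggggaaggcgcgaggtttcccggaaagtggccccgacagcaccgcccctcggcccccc
Selp, chr1:164115204-164115263: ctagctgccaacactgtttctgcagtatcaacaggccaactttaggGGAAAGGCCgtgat

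Windows of 250 bases before the start site were given for 6 of the 10 genes (Sele, Selp, Icam1, Eng, Flt1 and Lrg1). The motif GGNNNTTCC, read on both strands, was in 5 of the 6, all but Flt1, and in 15.7% of the 32851 windows of all genes. The longer NF-kB consensus motif was in 1 of the 6, Flt1, from 92 to 83 bases before its RefSeq start site (147726011, 23 bases from the one in the deposited table), and in 7.25% of all windows. TTCNNNGAA, the core of a STAT site, was found for Sele and Icam1 and in 7.02% of all windows, and in Sele it overlapped the NF-kB match. AACAAT, a core that SOX factors bind, was in none of the 6 and in 9.42% of all windows, and TATAAA was in those of Sele and Flt1 and in 12.4% of all windows. A match says only that these letters are present. Lrg1 held the short form and was called higher with LPS in both fractions, as were Sele, Selp and Icam1. Eng held the short form and was called higher with LPS in input but not in the positive fraction. Flt1 held the longer consensus and was lower with LPS in both fractions.

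LPS raised the 4 leukocyte adhesion molecules and Lrg1 in the positive fraction and lowered Sox17 and Flt1. Of the 10 genes 5 were called higher, beside 19% of all 14803 genes tested, and 2 were called lower, beside 14.9%. In input 6 were called higher (Sele, Selp, Icam1, Lrg1, Cdh5 and Eng), beside 7.16% of all genes, and 2 lower (Sox17 and Flt1), beside 5.26%. The median log2 fold change of the 10 genes was 0.73 in the positive fraction and 0.71 in input, beside 0.01 and 0.00 over all genes. The counts of genes called higher and the medians include Sele and Selp, which passed the filter only through LPS groups. Their calls therefore add little to the comparison with all genes. The other members called higher were Vcam1, Icam1 and Lrg1 in the positive fraction, and Icam1, Lrg1, Cdh5 and Eng in input. On the deposited log2 values of all 18 libraries, with the nearly empty one included, the input effects of Vcam1, Pecam1, Cdh5 and Eng turned negative, and on the same values without that library they did not. In whole tissue and in bulk pull-downs, fewer cells of a type and less RNA per cell cannot be told apart.

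**Figure D1:**
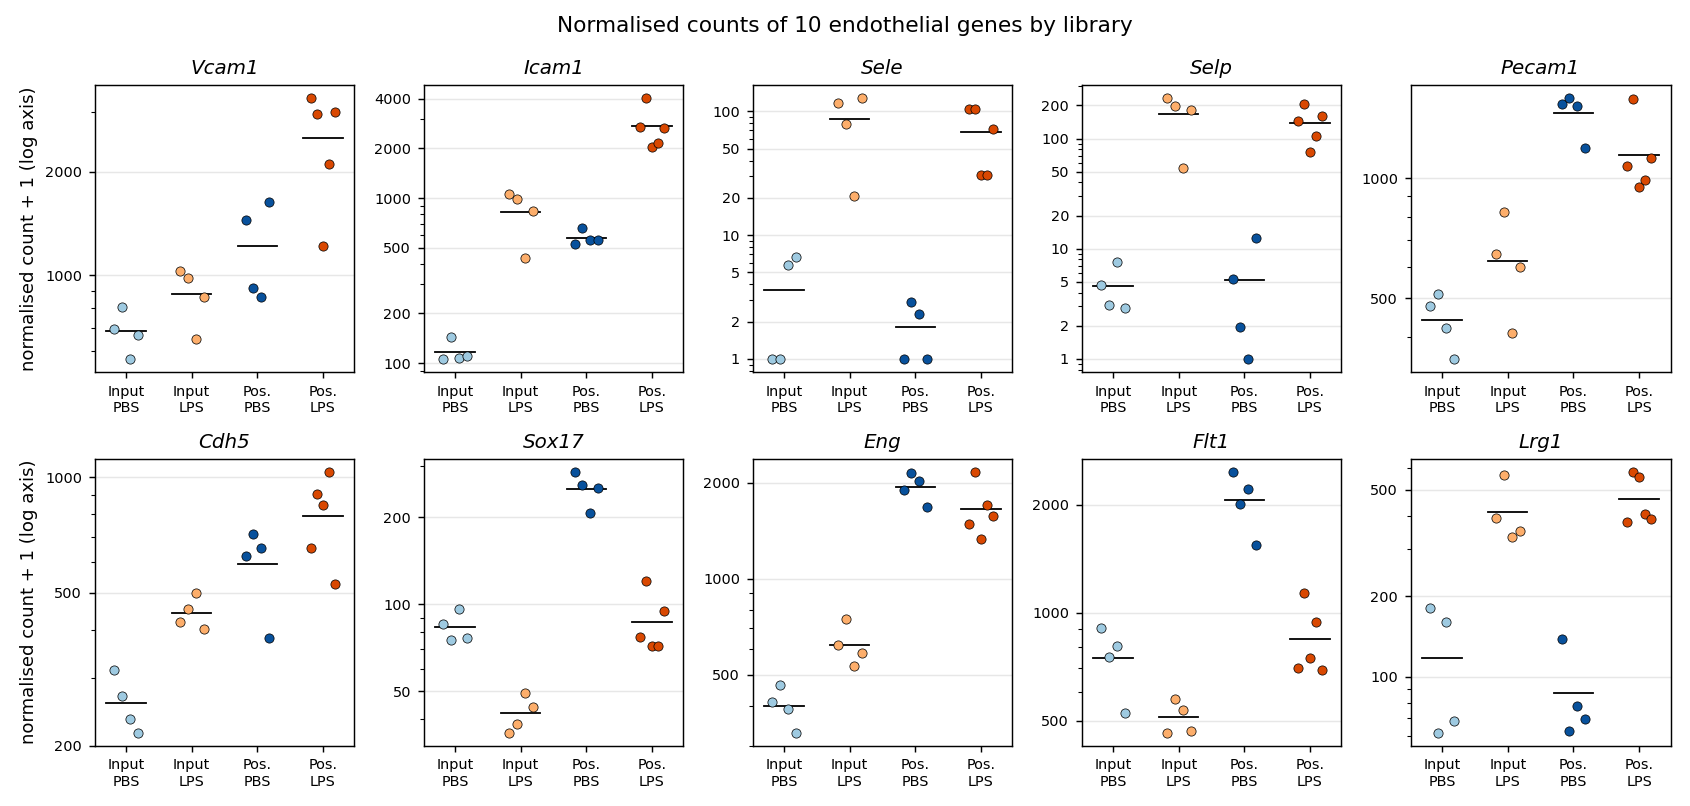
Normalised counts plus 1 on a log axis (its range differs between panels) for the 10 genes, with 1 point per library in the 4 groups and a horizontal bar at the group mean. Sele and Selp lie between 0 and 11.5 normalised counts in every PBS library and at 19.7 or above in every LPS library, whereas Sox17 and Flt1 lie lower in every Positive LPS library than in every Positive PBS library.

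Sele (chr1:164048234-164057677, plus strand) encodes E-selectin, which resting endothelium hardly makes and which appears on activated venules. In input its normalised counts were 0, 0, 4.75 and 5.72 in the PBS animals and 115, 78.1, 19.7 and 127 in the LPS animals. The positive fraction had 0, 1.9, 1.31 and 0 in the PBS animals and 103, 103, 29.7, 29.8 and 70.4 in the LPS animals. Every LPS library lay above every PBS library, and animal 270 was the lowest LPS animal in both fractions, level with animal 271 in the positive fraction. Since the PBS libraries were at or near the limit of 3 counts, the summed counts were compared. They were 408 with LPS and 11 with PBS in input, a ratio of 32.4 after scaling (95% exact binomial interval 17.9 to 65.4, counting error only). The sums in the positive fraction were 312 and 3, a ratio of 76.9 (26.1 to 375). The fitted log2 fold changes were 4.95 ± 0.76 (SE) in input (adjusted p = 1.83e-04) and 6.11 ± 0.93 in the positive fraction (4.85e-05), and they depend on the prior count that the fit adds. They were 5.62 in input without the PBS library of animal 506 and 6.98 in the positive fraction without that of animal 272, and ran from 4.53 and 5.72 up to these over single libraries left out. Sele passed the filter only through the Positive LPS group, so its adjusted p-values are descriptive.

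Selp (chr1:164115264-164150026, plus strand) encodes P-selectin, which is stored in endothelial granules and in platelets and is moved to the surface within minutes of activation. Input libraries held 3.65, 2.06, 6.65 and 1.91 normalised counts with PBS and 233, 196, 53.4 and 181 with LPS. Positive libraries held 4.36, 0.952, 0 and 11.5 with PBS and 143, 207, 74.2, 104 and 158 with LPS. Treatments did not overlap in either fraction, and animal 270 was again the lowest of the LPS animals in both. Summed counts of Selp were 785 with LPS and 15 with PBS in input, a scaled ratio of 45.7 (27.5 to 82.1), and 648 and 14 in the positive fraction, a ratio of 34.2 (20.3 to 63). The fit gave log2 fold changes of 5.48 ± 0.61 in input (adjusted p = 6.21e-06) and 5.05 ± 0.61 in the positive fraction (4.22e-06). The latter was 6.14 without the PBS library of animal 506, the highest of its group, and lay between 4.67 and 5.21 without any other single library. Selp passed the filter only through the LPS groups, so its adjusted p-values are descriptive too.

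Icam1 (chr9:21015960-21028796, plus strand) encodes ICAM-1, the endothelial ligand of the leukocyte integrins LFA-1 and Mac-1. Its normalised counts in input were 105, 144, 106 and 109 in the PBS animals and 1059, 981, 434 and 829 in the LPS animals. Among positive libraries the PBS animals had 524, 657, 558 and 553, and the LPS animals 2685, 4040, 2038, 2165 and 2650. All LPS libraries were above all PBS libraries of the same fraction, and animal 270 was once more the lowest with LPS in both fractions. The log2 fold change of Icam1 with LPS was 2.83 ± 0.25 in input (adjusted p = 4.87e-07) and 2.24 ± 0.23 in the positive fraction (5.61e-07).

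Vcam1 (chr3:116110020-116129688, minus strand) encodes VCAM-1, which binds the integrin VLA-4 of lymphocytes and monocytes. Input held 695, 807, 569 and 668 normalised counts with PBS and 1031, 981, 650 and 863 with LPS. The positive fraction held 1451, 917, 863 and 1631 with PBS and 3285, 2958, 1219, 2115 and 2994 with LPS. The treatments overlapped in both fractions through animal 270, whose values of 650 and 1219 lay within the range of the PBS animals. All other LPS libraries were above all PBS libraries. Vcam1 was called in the positive fraction (log2 fold change 1.05 ± 0.25, adjusted p = 0.00243) and was not called in input (0.36 ± 0.26, adjusted p = 0.385). The gap between these LPS effects did not pass its own test (0.68 ± 0.35, adjusted p = 0.305).

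Lrg1 (chr17:56119678-56121946, minus strand) encodes leucine-rich alpha-2-glycoprotein, a secreted modifier of TGF-beta signalling through endoglin. In input it had 180, 60.9, 159 and 67.6 normalised counts with PBS and 392, 567, 333 and 348 with LPS. Positive libraries had 137, 61.9, 77 and 68.8 with PBS and 379, 582, 556, 406 and 387 with LPS. No PBS library reached the lowest LPS library of its fraction. The PBS input libraries fell into a higher pair (animals 268 and 273) and a lower pair (animals 272 and 506). Lrg1 rose by a log2 fold change of 1.80 ± 0.32 in input (adjusted p = 7.17e-04) and of 2.42 ± 0.32 in the positive fraction (1.20e-05).

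Sox17 (chr1:4490928-4496413, minus strand), a transcription factor of arterial endothelium and of barrier maturation, fell in both fractions. Its input counts were 84.8, 74.3, 95 and 75.3 normalised counts with PBS and 35, 37.7, 48.4 and 43.1 with LPS. Among positive libraries it lay at 286, 257, 206 and 251 with PBS and at 76, 119, 70.5, 70.7 and 93.5 with LPS. The groups were well apart in each fraction. The log2 fold change of Sox17 was -1.0 ± 0.20 in input (adjusted p = 0.00173) and -1.54 ± 0.17 in the positive fraction (1.95e-06).

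Flt1 (chr5:147562196-147725988, minus strand) encodes VEGF receptor 1, which binds VEGF-A tightly and signals weakly. Positive libraries held 2470, 2013, 2215 and 1548 normalised counts with PBS and 702, 1135, 747, 939 and 691 with LPS. Input libraries held 903, 752, 807 and 526 with PBS and 462, 575, 534 and 468 with LPS. In the positive fraction every LPS library was lower than every PBS library, whereas in input the PBS library of animal 506, at 526, fell within the LPS range. Flt1 was lower with LPS by a log2 fold change of -1.29 ± 0.17 in the positive fraction (adjusted p = 9.60e-06). In input the log2 fold change was -0.55 ± 0.18 with an adjusted p of 0.0496, and the call was lost under several other settings, among them the replicate block with animal as the block (-0.51, limma adjusted p = 0.0522). It was also lost on removal of any of 10 libraries in turn, 7 of them input libraries (all but that of animal 506) and 3 the positive libraries of animals 271, 272 and 273, with values from -0.61 to -0.45 and adjusted p from 0.0509 to 0.145.

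Cdh5 (chr8:104101625-104144502, plus strand) encodes VE-cadherin, the adhesion protein of endothelial adherens junctions. In input it had 313, 268, 233 and 215 normalised counts with PBS and 418, 452, 497 and 401 with LPS. In the positive fraction it had 623, 710, 653 and 380 with PBS and 654, 902, 844, 1032 and 525 with LPS. The treatments were separate in input and overlapped in the positive fraction. Cdh5 was called higher in input (log2 fold change 0.78 ± 0.20, adjusted p = 0.0147), but not without the PBS input library of animal 506 (0.70, adjusted p = 0.0513). The change in the positive fraction was a log2 value of 0.42 ± 0.19 (adjusted p = 0.0864), and it was called without the positive library of animal 507 (0.54, adjusted p = 0.023).

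Eng (chr2:32646595-32682669, plus strand) encodes endoglin, a co-receptor for TGF-beta family ligands on endothelium and activated macrophages. Input held 409, 463, 390 and 328 normalised counts with PBS and 619, 745, 532 and 585 with LPS. The positive fraction held 1898, 2152, 2027 and 1681 with PBS and 1484, 2164, 1332, 1700 and 1576 with LPS. LPS libraries were all higher than PBS libraries in input, and the groups overlapped in the positive fraction, where the LPS library of animal 267 was the highest of all. The log2 fold change was 0.64 ± 0.14 in input (adjusted p = 0.00552) and -0.23 ± 0.13 in the positive fraction (0.17). Leaving out the positive library of animal 267 gave -0.34 in the positive fraction, which was called (adjusted p = 0.0301). Leaving out animals 506 and 507 gave 0.59 in input, which was not (adjusted p = 0.0527).

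Pecam1 (chr11:106654218-106715281, minus strand) encodes PECAM-1, which lines endothelial contacts and is used by leukocytes as they cross. Its input values were 477, 510, 421 and 351 normalised counts with PBS and 644, 822, 409 and 596 with LPS. Its positive fraction values were 1532, 1587, 1516 and 1190 with PBS and 1073, 1576, 948, 987 and 1125 with LPS. The groups overlapped in both fractions, through animal 270 in input and through animal 267 in the positive fraction. Neither LPS effect was called, with log2 fold changes of 0.49 ± 0.19 in input (adjusted p = 0.0947) and -0.35 ± 0.18 in the positive fraction (0.118). With a replicate block for animal, the effect in the positive fraction was called (-0.37, limma adjusted p = 0.0454), as it was without the positive library of animal 267 (-0.49, adjusted p = 0.0252). Without the input library of animal 270 the effect in input was called (0.65, adjusted p = 0.0221).

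**Figure D2:**
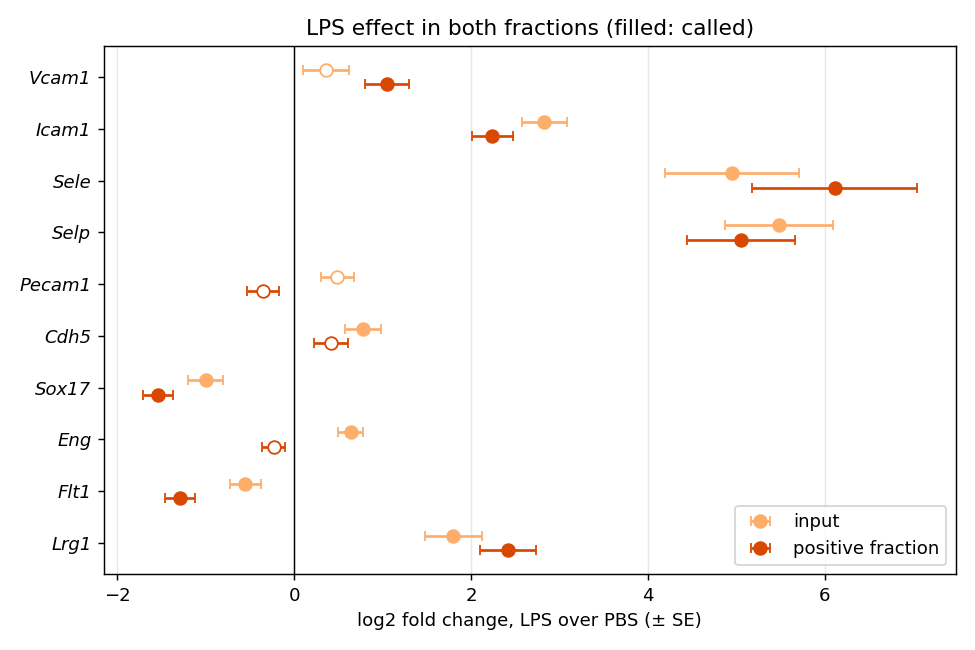
Log2 fold change of LPS over PBS with its standard error for the 10 genes in input (light) and in the positive fraction (dark), with filled points for called effects. The selectins lie near 5 to 6, Icam1 at 2.83 and 2.24, Lrg1 at 1.80 and 2.42, and Eng and Pecam1 lie above 0 in input (below 0 on the deposited log2 values with the nearly empty library) and below 0 in the positive fraction.

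An interaction term asked whether LPS acted alike in input and in the positive fraction. Of the 8 genes with enough counts in PBS libraries (Sele and Selp were at or near the detection limit there), 1 was called with a lower effect in the positive fraction, Eng, beside 1.42% of all genes, and none with a higher effect, beside 5.46%. The interaction of Eng was -0.87 ± 0.20 on the log2 scale (adjusted p = 0.00987). Pecam1 (-0.84 ± 0.26, adjusted p = 0.0578) and Flt1 (-0.74 ± 0.25, adjusted p = 0.0847) had values of like size that did not pass. Input and positive libraries of the same number come from the same animal, and a fit with a replicate block for animal called 3 genes, beside 4.03% of all genes: Eng (-0.90 ± 0.10, adjusted p = 6.15e-05), Flt1 (-0.81 ± 0.11, 4.52e-04) and Pecam1 (-0.78 ± 0.11, 5.88e-04). The same 3 genes passed without the positive library of animal 267 (Flt1 -0.86, Pecam1 -0.98) and without that of animal 506 (Flt1 -0.85, Pecam1 -0.93). Eng and Pecam1 passed without the input library of animal 270 (Pecam1 -1.0), and none passed once animals 506 and 507 were left out (Eng -0.87, adjusted p = 0.0704).

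Positive over input was compared next, to describe how much of these transcripts the pull-down held. In PBS animals 7 of the 8 genes with enough counts were called higher in the positive fraction, beside 21% of all genes, and none lower, beside 18.8%. In LPS animals the same 7 of all 10 were called higher (27.6% of all genes), and none lower (25.8%). The 7 were Vcam1, Icam1, Pecam1, Cdh5, Sox17, Eng and Flt1. Their median with Lrg1 included was 1.53 on the log2 scale in PBS animals, and the median of all 10 was 0.86 in LPS animals, beside 0.00 and -0.03 over all genes.

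Within each animal the ratio of positive to input normalised counts can be read directly. For Eng it was 4.64, 4.64, 5.19 and 5.13 in the PBS animals and 2.4, 2.9, 2.5 and 2.7 in the 4 LPS animals with both libraries. Each LPS animal was below each PBS animal. The fitted log2 values of Eng were 2.29 ± 0.15 in PBS animals (adjusted p = 4.71e-10) and 1.41 ± 0.14 in LPS animals (9.26e-08). Pecam1 showed the same separation, with ratios of 3.21, 3.11, 3.6 and 3.39 in the PBS animals and 1.67, 1.92, 2.32 and 1.89 in the LPS animals. So did Flt1, with 2.73, 2.68, 2.74 and 2.94 in the PBS animals and 1.52, 1.97, 1.4 and 1.48 in the LPS animals. The share of all genes whose ratios separate in this way was not counted, so the separation is a description only.

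For Icam1 the ratio ranged from 4.55 to 5.24 in the PBS animals and from 2.54 to 4.69 in the LPS animals, and the ranges touched only through animal 270. Cdh5 ran from 1.76 to 2.81 with PBS and from 1.31 to 2 with LPS, and Sox17 from 2.17 to 3.46 and from 1.46 to 3.16. Vcam1 had the opposite order, with 1.14 to 2.44 in PBS and 1.87 to 3.47 in LPS animals. These ranges overlapped, and none of the 4 genes passed the interaction test with or without the replicate block. Vcam1 over input in PBS animals (0.83 ± 0.26, adjusted p = 0.0142) was no longer called without the positive library of animal 506 (0.65, adjusted p = 0.0597).

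Lrg1, and the selectins in LPS animals, were not called higher in the positive fraction. The Lrg1 ratio ran from 0.49 to 1.02 in PBS animals and from 0.97 to 1.67 in LPS animals, and neither comparison was called (log2 values -0.44 ± 0.33, adjusted p = 0.294, and 0.17 ± 0.29, adjusted p = 0.616). In LPS animals Sele had ratios of 0.9, 1.31, 1.51 and 0.55 and Selp of 0.61, 1.06, 1.39 and 0.87, so each lay on both sides of 1. Their fitted log2 values were -0.34 ± 0.50 for Sele (adjusted p = 0.566) and -0.27 ± 0.40 for Selp (0.573). The 95% intervals in LPS animals were -0.45 to 0.8 for Lrg1, -1.42 to 0.73 for Sele and -1.14 to 0.6 for Selp. A rise within these intervals was not excluded. For both selectins animal 270, which had the fewest counts, had the highest ratio.

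**Figure D3:**
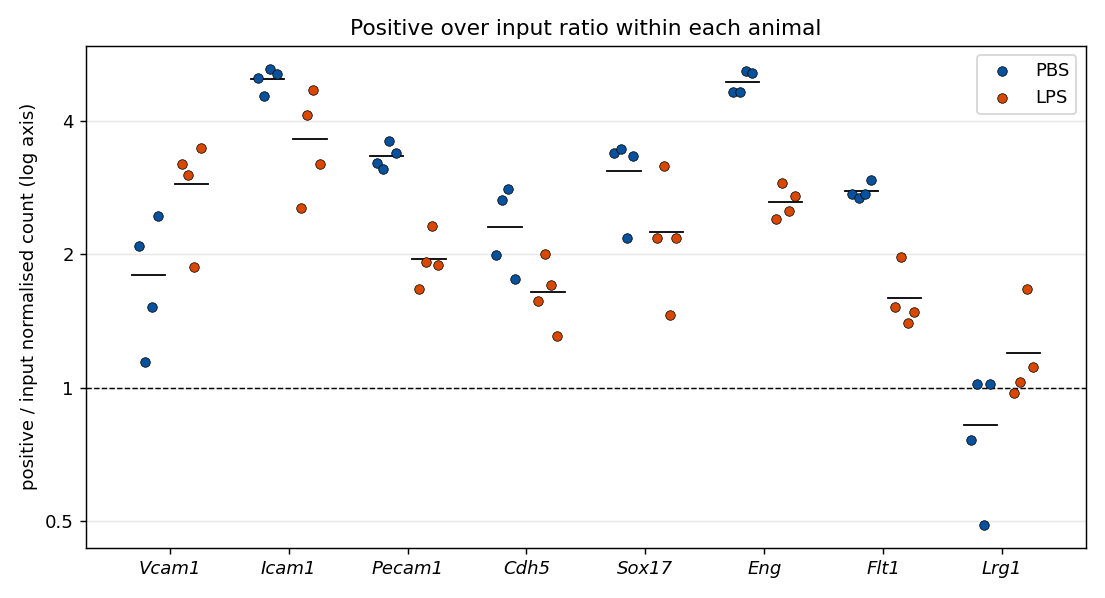
Positive over input ratio of normalised counts on a log axis for 8 genes, with 1 point per animal (4 with PBS, 4 with LPS), a bar at the mean and a dashed line at 1. PBS and LPS animals do not overlap for Eng, Pecam1 and Flt1 (the share of all genes was not counted), and Lrg1 lies around 1.

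Other endothelial genes gave a wider view. A list of 20 pan-endothelial genes, all of them tested, had 19 called higher in the positive fraction than in input in PBS animals, with a median fold of 2.37, beside 21% of all genes, and 12 in LPS animals, with a median fold of 1.54, beside 27.6%. With LPS, 3 of the 20 rose and 6 fell in the positive fraction (median -0.22), beside 19% and 14.9% of all genes, so higher calls were no more frequent than in the background. In input 5 rose and 1 fell (median 0.35), beside 7.16% and 5.26%. With the replicate block 3 were called higher in input, beside 7.06% of all genes. In the positive fraction Tek, the angiopoietin receptor, fell from 523 ± 201 (SD, n = 4) to 145 ± 50 normalised counts (n = 5), a log2 fold change of -1.86 ± 0.32 (adjusted p = 1.60e-04). Ptprb, the phosphatase that acts on that receptor, fell from 1248 ± 291 to 376 ± 71 (-1.73 ± 0.19, adjusted p = 1.33e-06). The transcription factor gene Erg fell from 251 ± 92.6 to 126 ± 20.4 (-0.99 ± 0.22, adjusted p = 0.00149).

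In input the tight junction gene Cldn5 rose from 472 ± 97.3 to 1190 ± 210 normalised counts (log2 fold change 1.34 ± 0.19, adjusted p = 7.13e-05). Emcn, the sialomucin endomucin of veins and capillaries, rose from 101 ± 22.3 to 221 ± 19.9 (1.13 ± 0.20, adjusted p = 7.76e-04). Ptprb fell in input as well, from 612 ± 86.5 to 302 ± 88.5 (-1.02 ± 0.20, adjusted p = 0.00203). None of the 20 genes passed the interaction test, whose median over the list was -0.65. The shares of all genes were 5.46% with a higher and 1.42% with a lower LPS effect in the positive fraction. With the replicate block 10 of the 20 had a lower LPS effect in the positive fraction (median -0.62), beside 4.03% of all genes. None had a higher one, beside 1318 of all 14803 genes.

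A second list held 20 tested genes of endothelial activation, coagulation and transmigration. With LPS, 11 rose and 2 fell in the positive fraction (median 0.62), beside 19% and 14.9% of all genes, and 10 rose and 1 fell in input (median 0.59), beside 7.16% and 5.26%. With the replicate block 4 fell in the positive fraction, beside 14.9% of all genes. Ch25h, whose enzyme makes an antiviral oxysterol, rose from 62.1 ± 13.3 to 719 ± 367 normalised counts in the positive fraction (log2 fold change 3.54 ± 0.39, adjusted p = 1.57e-06) and from 42.5 ± 15.5 to 223 ± 72.2 in input (2.38 ± 0.40, adjusted p = 4.46e-04). In the positive fraction Angpt2, an antagonist of the Tek receptor, rose from 78.5 ± 31.9 to 271 ± 86.3 (1.78 ± 0.29, adjusted p = 8.88e-05), and Edn1, the vasoconstrictor endothelin, from 149 ± 29.9 to 491 ± 208 (1.71 ± 0.25, adjusted p = 3.41e-05).

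Input showed Procr, the endothelial protein C receptor, rising from 27.1 ± 6.35 to 89.3 ± 25.6 normalised counts (log2 fold change 1.72 ± 0.27, adjusted p = 1.92e-04). Tnfrsf1a, the main receptor of tumour necrosis factor, rose there from 363 ± 31.9 to 1134 ± 151 (1.64 ± 0.09, adjusted p = 3.64e-09). Its LPS effect was smaller in the positive fraction (interaction -0.53 ± 0.13, adjusted p = 0.0137).

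The leukocyte partners of the adhesion molecules were listed next. Of 12 tested genes 4 rose and 2 fell with LPS in the positive fraction (median 0.02), beside 19% and 14.9% of all genes. In input 3 rose and 1 fell (median 0.04), beside 7.16% and 5.26%. Itgal, the alpha chain of the ICAM-1 receptor LFA-1, rose from 55.8 ± 10.4 to 354 ± 61.4 normalised counts in the positive fraction (log2 fold change 2.66 ± 0.24, adjusted p = 1.72e-07). Its effect was larger there than in input (interaction 2.22 ± 0.35, adjusted p = 7.15e-04). Cd44, a ligand of E-selectin, rose from 186 ± 37.4 to 780 ± 285 in the positive fraction (2.07 ± 0.24, adjusted p = 2.52e-06) and from 145 ± 29 to 327 ± 64.1 in input (1.17 ± 0.25, adjusted p = 0.00302). Selplg, the ligand of P-selectin and abundant in microglia, fell from 18266 ± 1258 to 5780 ± 2176 in the positive fraction (-1.66 ± 0.22, adjusted p = 1.00e-05) and from 845 ± 92.1 to 334 ± 75.3 in input (-1.34 ± 0.24, adjusted p = 8.52e-04). Itgam, the alpha chain of Mac-1, rose in input from 742 ± 50.5 to 1702 ± 509 (1.20 ± 0.22, adjusted p = 0.00104).

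Among 20 tested genes of VEGF and endoglin signalling, 2 rose and 6 fell with LPS in the positive fraction (median 0.07), beside 19% and 14.9% of all genes. In input 6 rose and 4 fell (median 0.14), beside 7.16% and 5.26%. Vegfa, the ligand of the FLT1 receptor, fell from 1489 ± 388 to 692 ± 125 normalised counts in the positive fraction (log2 fold change -1.10 ± 0.15, adjusted p = 1.79e-05) and from 3482 ± 484 to 1476 ± 68 in input (-1.24 ± 0.16, adjusted p = 3.45e-05). Tgfbr1, a TGF-beta receptor also abundant in microglia, fell from 10276 ± 1347 to 4054 ± 1558 in the positive fraction (-1.34 ± 0.20, adjusted p = 3.41e-05). Bmp6 fell from 214 ± 52.4 to 106 ± 6.94 in the positive fraction (-1.01 ± 0.14, adjusted p = 2.37e-05) and from 387 ± 34.5 to 206 ± 14.7 in input (-0.91 ± 0.15, adjusted p = 2.97e-04). Id1, a target of bone morphogenetic protein signalling, rose in input from 357 ± 79.9 to 592 ± 115 (0.73 ± 0.19, adjusted p = 0.0156), and lost its call without the input library of animal 270 (0.63, adjusted p = 0.0576) or of animal 506 (0.61, adjusted p = 0.0573).

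**Figure D4:**
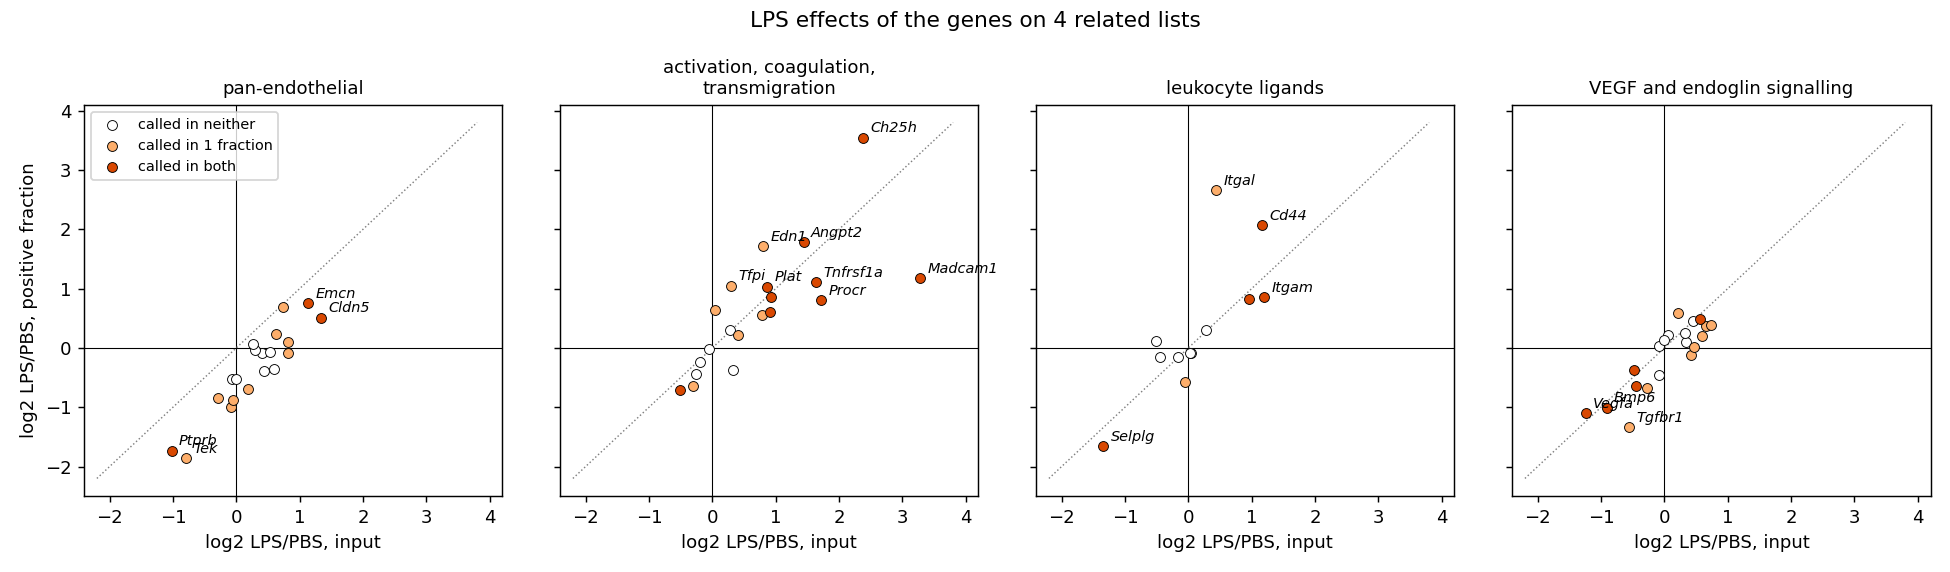
Log2 fold change of LPS over PBS in input (horizontal) and in the positive fraction (vertical) for each tested gene of the 4 lists, coloured by how many of the fractions called it, with a dotted line of equal effects. Pan-endothelial genes lie mostly below the line, and Ch25h and Itgal lie above it.

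Markers of other cell types were compared between fractions and treatments, and not all of them differed between fractions. The 12 microglia genes summed to between 13589 and 18780 normalised counts in input and between 203680 and 309524 in the positive fraction, and all 12 were called higher there in PBS and in LPS animals (medians 4.32 and 4.14), where the 7 genes called higher had log2 values from 0.83 (Vcam1) to 2.31 (Icam1) in PBS and from 0.73 (Flt1) to 1.72 (Icam1) in LPS animals. The lowest microglia gene, Sall1, had 1.92 and 1.46, within those ranges. The 8 perivascular macrophage genes were all called higher in the positive fraction too (4.02 and 3.31). For all genes the shares called higher there were 21% in PBS and 27.6% in LPS animals. The sum of the perivascular macrophage genes ranged from 10653 to 18863 in Positive PBS and from 7490 to 15939 in Positive LPS. Of 10 pericyte genes, the neighbours of endothelium on the vessel wall, none was called higher in the positive fraction of PBS animals (median -0.28). In that comparison 1 was called lower, beside 18.8% of all genes. With the replicate block for animal 5 were called lower there, beside 22.2% of all genes. In LPS animals 7 of the 10 pericyte genes were called lower in the positive fraction than in input and 1 higher (median -0.68). The shares of all genes were 25.8% and 27.6%. With LPS 6 pericyte genes fell and 1 rose in the positive fraction (median -0.77), beside 14.9% and 19% of all genes. All 10 oligodendrocyte genes were called lower in the positive fraction than in input in PBS and in LPS animals (medians -2.39 and -1.78). The shares of all genes were 18.8% and 25.8%. With LPS 8 of the oligodendrocyte genes fell in input (median -0.71), beside 5.26% of all genes. In the positive fraction 4 of them fell (median -0.38, 2 with the replicate block), beside 14.9%. Their sum ranged from 111512 to 174273 normalised counts in Input PBS and from 71297 to 100252 in Input LPS. Of 10 neuron genes 5 fell with LPS in the positive fraction (median -0.34), beside 14.9% of all genes. None was called in input (median -0.19). In PBS animals 3 neuron genes were called higher in the positive fraction than in input and none lower (median 0.03), beside 21% and 18.8% of all genes. Of 10 astrocyte genes 1 was called higher there and 5 lower (median -0.34), beside 21% and 18.8% of all genes. For both lists the ranges of the sums in Input PBS and Positive PBS overlapped.

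Blood cells differed as well. The sum of 8 platelet genes ranged from 818 to 893 in Positive PBS and from 397 to 760 in Positive LPS, and from 528 to 767 in Input PBS and 344 to 654 in Input LPS. Neutrophil genes summed to between 470 and 819 in Input PBS and between 767 and 1644 in Input LPS, and to between 146 and 317 in Positive PBS and 429 and 1155 in Positive LPS. In each fraction 5 of the 6 tested neutrophil genes rose with LPS, beside 19% (positive) and 7.16% (input) of all genes. Ly6g, a defining gene, was at 0 in all 4 groups. Erythrocyte genes summed to between 1562 and 5290 in Input PBS and 1319 and 2199 in Input LPS. The sum of 10 monocyte genes ranged from 3302 to 4143 in Input PBS and from 2363 to 3315 in Input LPS. It ranged from 2659 to 4420 in Positive PBS and from 2230 to 2804 in Positive LPS. Of the 7 tested monocyte genes 1 was called higher with LPS and none lower in input (median -0.31). In the positive fraction 1 was called higher and 2 lower (median -0.22). Of the 5 tested platelet genes 2 were called lower in the positive fraction (median 0.14) and 1 in input (median -0.04), and none higher. The shares of all genes called lower were 14.9% (positive) and 5.26% (input). The part of all these cell types in the values of the 10 genes was not tested.

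Across the 17 libraries the 10 genes fell into patterns, described here by Pearson's r of log2(normalised count + 1) between genes. The libraries share fraction and treatment, so r mostly records these, and no test was made. Sele, Selp and Lrg1 were close to each other (r of 0.85 to 0.91), as were Eng and Pecam1 (0.97) and Sox17 and Flt1 (0.94). Icam1 lay nearest to Vcam1 and Cdh5 (0.83 with each). Sox17 was opposed to Sele (-0.67) and Selp (-0.63).

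The nearest genes among 13652 genes (mean normalised count 50 or more) were looked up in the same way. For Pecam1 they were Sema3g (r = 0.979), Eng (0.974) and Prpf6 (0.966), and for Flt1 they were Kdr, which encodes VEGF receptor 2 (0.977), Tmem204 (0.959) and Eps8l2 (0.95). Sox17 had Slc25a23 (0.969), Col15a1 (0.966) and Pdgfb (0.966), Cdh5 had Gpkow (0.945), Rasip1 (0.934) and Smad6 (0.931), and Eng had Trim12c (0.982), Itpr2 (0.981) and Neurl3 (0.979). Icam1 was nearest to the interferon-stimulated genes Irf9 (0.984), Usp18 (0.981) and Eif2ak2 (0.981). Vcam1 was nearest to Sept2 (0.966), Eri1 (0.957) and Ctnnd1 (0.957), and Lrg1 to Fam63a (0.94), Slc43a3 (0.934) and Ier3 (0.931). The selectins shared Timp1 (0.95 for Sele, 0.951 for Selp). The others nearest to Sele were Ddx60 (0.95) and Serpina3n (0.939), and those nearest to Selp were Gfap (0.96) and Cyp1b1 (0.951).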

How the data were processed

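RNAseq of input and positive TRAP fractions was analysed from the authors' table. Per the study's methods, reads were trimmed and aligned by strand to Mm10 in Strand NGS. Per the file headers, the gene models were those of RefSeq. The deposited estimated counts hold fractions of reads (81.1% of nonzero values were not whole within 0.001) and were rounded. The deposited log2 values are those counts scaled by DESeq size factors over all 18 libraries, relative to Input PBS, and served as an alternative. Genes with over 20 normalised counts in every library of at least 1 group were fitted with edgeR 4.0.16 (quasi-likelihood, 1 mean per group, 13 residual degrees of freedom) in R 4.3.3, using median-of-ratios size factors (0.766 to 1.32) from 17 libraries, after a check on simulated data. The filter and the call thresholds follow the study's methods, where an analysis of variance was used in place of this count model.

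The members, the lists and the comparisons were chosen with earlier results of these data known. Named genes were all 10 members, per list and LPS effect the 3 called genes with the largest change (mean normalised count 50 or more), and 3 nearest genes per member. Of the list genes, 3 were matched by gene identifier and 2 were not matched. A total of 3 counts was taken as the detection limit, a share of 8.54e-06% to 1.31e-05% of a library. The intervals of the summed-count ratios cover counting error only. Those of positive over input were computed from the SE of the fit with 13 degrees of freedom, and include the spread between libraries.

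Input and positive libraries of 1 animal number come from the same mouse. Their deviations from the group means correlated with r from 0.16 to 0.52 in the 8 pairs. Alternatives were TMM scaling, DESeq2 1.42.0, limma 3.58.1 on the deposited log2 values, other filters, all 18 libraries, only the libraries compared, sex as a term, a replicate block, and leaving libraries out.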

Additional observations from a re-analysis of the deposited data

Results flagged for a closer look

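Eng had a different LPS effect in the 2 fractions by the interaction test, -0.87 on the log2 scale (adjusted p = 0.00987, edgeR), with 4 of 4 LPS animals below all 4 PBS animals in positive over input. Within-group outliers were sought in 37 groups of 4 or 5 libraries by the gap to the nearest library over the group's range, a rule that marks about 1 group in 20 by chance. In Input PBS, Icam1 stood at 144 normalised counts in animal 272, against 109 in the next highest. In Positive LPS, Pecam1 stood at 1576 in animal 267, against 1125 in the next highest.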

How the results depend on the processing

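Under all alternatives but 1, 35 of the 46 member results kept direction and side of the threshold and none changed direction. The other 11 concerned Pecam1, Eng, Flt1, Cdh5 and Vcam1. Besides the values in the report, calls were gained for Pecam1 with sex as a term (0.56 in input, adjusted p = 0.0184, and interaction -0.82, 0.0171), for the interactions of Pecam1 (-0.84, 0.0196) and Flt1 (-0.74, 0.0401) with DESeq2, and for Cdh5 in the positive fraction with all 18 libraries (0.46, 0.0472). A call was lost for Vcam1 over input in PBS animals without animals 506 and 507 (0.64, 0.133). Sele gave no value with all 18 libraries, where it did not pass the filter on low counts. The exception was limma on the deposited log2 values of all 18 libraries, which include the nearly empty input library. There, 29 of the 30 called member results lost their call and 12 member results changed direction, 3 of them among the 29. The LPS effects in input became -1.47 (Vcam1), -1.25 (Pecam1), -0.83 (Cdh5), -1.08 (Eng), -0.36 (Cd44), -0.56 (Cldn5), -0.27 (Emcn), -0.97 (Id1), -0.86 (Itgam) and -0.26 (Tnfrsf1a). Interactions became 1.28 (Icam1), 0.93 (Pecam1), 1.30 (Cdh5), 0.43 (Sox17), 0.88 (Eng) and 0.95 (Flt1), and positive over input with LPS became 0.76 (Sele) and 1.06 (Selp). Members called fell to 1 higher and 0 lower for LPS in the positive fraction and to 0 elsewhere. Genes called over all were 47 higher and 15 lower for LPS in the positive fraction, 124 and 0 for positive over input with PBS, 576 and 0 with LPS, and 0 for LPS in input and for the interaction, where edgeR called from 210 to 1060 in each direction. On 17 libraries, chosen after seeing the data, the same values gave every member call but Flt1 with LPS in input (-0.51, adjusted p = 0.0857) and Vcam1 over input in PBS animals (0.66, 0.0919).

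Flt1 decided the number of members called lower in input, which was 1 in place of 2 on the 17 libraries of deposited values, with no filter, the filterByExpr filter, all 18 libraries, sex as a term and the replicate block. Interaction calls among members numbered 3 with DESeq2 and with the replicate block, 2 with sex as a term and 0 without animals 506 and 507. Over all genes, the interaction had 1318 higher and 597 lower with the replicate block, 319 lower with DESeq2, and 264 higher and 59 lower without those animals, where LPS in input had 673 and 410. Leaving out 1 library at a time gave 2 to 4 members lower with LPS in the positive fraction, 1 to 2 in input and 1 to 3 for the interaction. Besides the results printed with both fits, the replicate block changed no call of a member. Sele and Selp had too few counts in PBS animals for positive over input or an interaction. With 4 or 5 animals a group and 1 male given LPS, sex and treatment can be separated only weakly.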
